A study of Mus musculus with 6 samples.

Results

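The common gamma chain system was followed here through 10 genes of the deposited count table, chosen by symbol: the cytokine genes Il15 and Il7, the receptor chain genes Il2rg, Il2rb, Il15ra, Il7r and Il21r, the kinase gene Jak3, and the transcription factor genes Stat5a and Stat5b. All 10 were among the 23122 genes of the table, and all 10 passed the filter on low counts that left 14189 genes for testing. The tumors came from female BALB/c mice, 6 to 8 weeks of age, each injected under the skin with 500000 CT26 cells, a mouse colorectal carcinoma line, and assigned to a group at random once a tumor measured 100 to 200 mm3. In 3 tumors the mice had received TP-18, a compound that blocks the prostaglandin E2 receptors EP2 and EP4 according to the series title, at 50 mg/kg by mouth once a day for 3 weeks. In the other 3 the mice had received vehicle. No genetic change is named for either group, and both carried the same cell line in hosts of the strain it came from, with their own lymphocytes. The comparison asks which transcripts of the whole tumor, cancer cells and host cells together, differ after treatment.

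Cytokines of this system bind receptors that share the common gamma chain, encoded by Il2rg. IL-15 is presented on the surface of one cell by its private chain, encoded by Il15ra, to a neighbouring lymphocyte that carries the beta chain (Il2rb) and the gamma chain, while IL-7 binds a receptor made of Il7r and the gamma chain. JAK3 sits on the gamma chain and, with JAK1, phosphorylates STAT5A and STAT5B, which enter the nucleus and switch on genes of survival and growth. In tumors the system is known for sustaining NK cells and CD8 T cells.

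Of the 10 genes, Il2rb, Il15ra and Il2rg rose in TP-18 tumors, by 2.92-fold, 2.64-fold and 1.68-fold, and none fell. These are the chains through which IL-15 is presented and received. Il2rb and Il2rg also serve IL-2, and Il2ra, an IL-2 receptor chain outside the 10, rose by 4.49-fold (adjusted p = 0.0138 by edgeR). The calls thus do not single out IL-15. Il15 itself, Il21r, Il7r, Stat5a, Stat5b, Jak3 and Il7 did not pass the test. Calls rest on edgeR's quasi-likelihood test across all tested genes, with p-values adjusted after Benjamini and Hochberg and 0.05 as the limit. It called 7.09% of them higher and 5.26% lower in TP-18 tumors. By unadjusted p, 6 of the 10 were under 0.05, all of them higher, as were 15.3% of all tested genes. The median log2 change over the 10 was 0.61, against -0.01 over all tested genes. In 6 of the 10 every TP-18 tumor lay above every vehicle tumor, as did 18% of all tested genes, and in none was the order the other way, as it was in 17.8% of all tested genes. The count of members called higher was 5 by limma on FPKM with a filter on low values, which called 10.8% (pseudocount 1) and 10.5% (pseudocount 0.1) of their genes higher. Without that filter it was 2, and 3.25% of all genes were called higher. It was 4 by DESeq2, which called 10.3%. It was 2 with the replicate number as a block, against 3.86% of all genes. Without 1 tumor in turn it was 2 to 4, and the share of all genes called higher was 4.08%, 3.51% and 2.69% without TP-18 1, 2 and 3 and 8.3%, 2.81% and 6.4% without vehicle 1, 2 and 3.

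**Figure D1:**
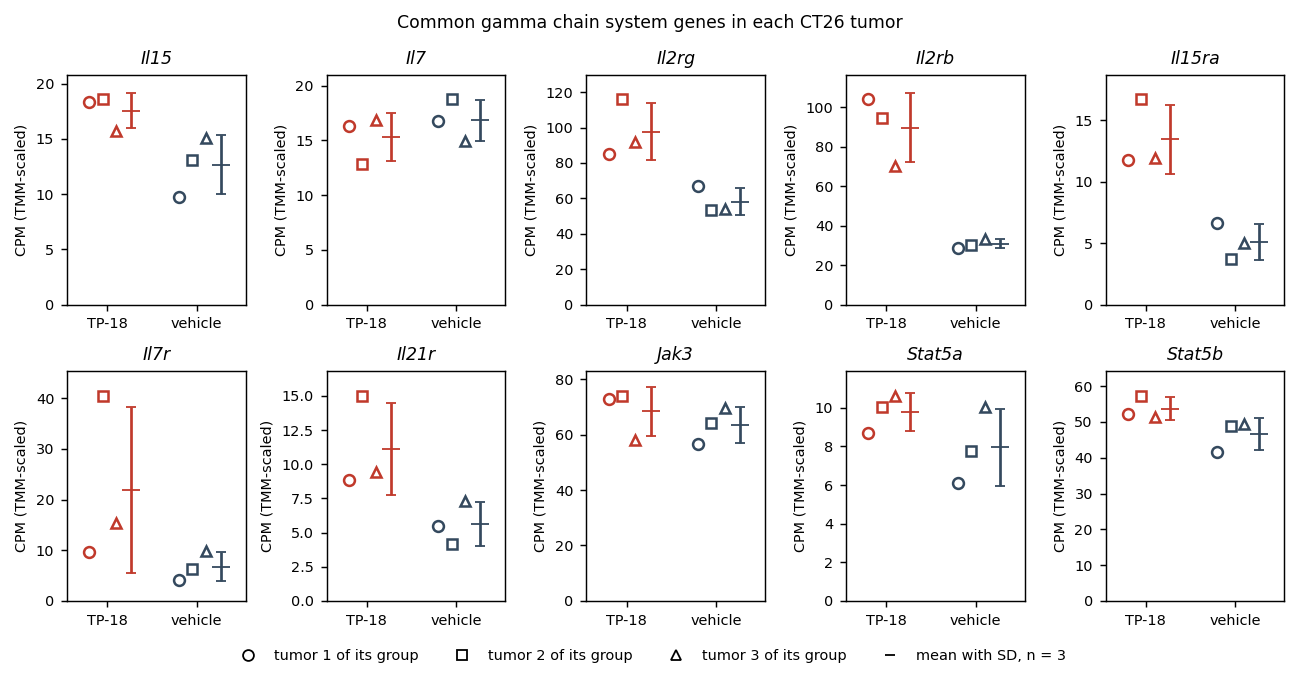
Levels of the 10 genes in each tumor, in TMM-scaled CPM (counts relative to library size, vertical axis from 0), with TP-18 tumors on the left and vehicle tumors on the right of each panel. Symbols are single tumors, and the bars beside them are the mean and SD of 3 tumors. The groups are separate for Il2rb, Il2rg and Il15ra and, more narrowly, for Il15, Il21r and Stat5b. For Il7r, 1 TP-18 tumor at 40.5 CPM stands above the rest.

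Total counts ran from 35347034 to 36489081 in TP-18 and from 34813482 to 35163739 in vehicle libraries. Marker genes of several cell types also differed between the groups. All 14 T cell markers and all 8 NK cell markers were called higher, with summed levels of 111 to 128 CPM in TP-18 against 21.1 to 39.1 CPM in vehicle tumors for T cells and of 111 to 148 against 25.5 to 33.8 CPM for NK cells. Macrophage and monocyte markers had 5 of 12 called higher, with sums of 3100 to 4032 against 1687 to 2405 CPM, and dendritic cell markers 6 of 10, with sums of 216 to 224 against 176 to 223 CPM. Most of the dendritic cell sum was Fscn1, at 158 to 166 against 158 to 196 CPM, which was not called. The 6 called genes of that list rose from 3.14-fold (Wdfy4) to 10.9-fold (Xcr1). Skeletal muscle markers, 5 of 9 called higher, summed to 56.4 to 116 against 10.6 to 31.2 CPM and red blood cell markers, 4 of 5 called lower, to 14.8 to 33.9 against 66.3 to 395 CPM. Vehicle 3 stood apart in neutrophil markers, at 325 CPM, against 32.1 and 55.2 CPM in the other vehicle tumors and 58.1 to 84.6 CPM in TP-18 tumors. It was also the highest in fibroblast markers, at 6417 CPM against 2348 and 2463 CPM in the other vehicle tumors and 2662 to 4151 CPM in TP-18 tumors, and the lowest in endothelial markers, at 63.7 CPM against 138 and 150.3 CPM in the other vehicle tumors. The part of these shifts in the results below was not tested. In whole tumors, more cells of a type and more RNA per cell cannot be told apart. Epithelial markers were scarce for a carcinoma line, with Krt18 at 4.0 to 7.5 CPM in TP-18 and 8.53 to 13.0 CPM in vehicle tumors and Cdh1 at 3.52 to 5.0 CPM in TP-18 and 1.053 to 2.4 CPM in vehicle tumors, neither past the test (adjusted p = 0.0649 and 0.0647 by edgeR). Of the other 5 markers of that list, Epcam, Krt8, Cdx2 and Vil1 were under 1 CPM in all 6 tumors, and Krt19 in all but vehicle 3, at 2.93 CPM.

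Of the cytokines, Il15 (Entrez 16168, chromosome 8, 82331624 to 82403252 on the minus strand in GRCm38.p6) encodes the survival factor of NK cells and memory CD8 T cells. Its level was 18.4, 18.6 and 15.7 CPM in TP-18 tumors and 9.79, 13.1 and 15.1 CPM in vehicle tumors. Every TP-18 tumor was above every vehicle tumor, but TP-18 3 only just exceeded vehicle 3. The group means were 17.6 ± 1.6 and 12.7 ± 2.69 CPM (SD, n = 3 each), the log2 fold change was 0.47 ± 0.17 (SE) and the adjusted p of 0.106 by edgeR missed the threshold. Without 1 tumor in turn it ran from 0.0536 without vehicle 3 to 0.251 without TP-18 1. On FPKM, the authors' counts per length and library total, limma gave Il15 an adjusted p of 0.0347 with a pseudocount of 1 and 0.036 with 0.1, but of 0.0883 with a pseudocount of 1 and no filter on low values.

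Il7 (Entrez 16196, chromosome 3, 7572028 to 7613760, minus strand), a cytokine made by stromal cells that maintains T cells, did not pass the test. It measured 16.3, 12.8 and 16.9 CPM in TP-18 and 16.7, 18.8 and 14.95 CPM in vehicle tumors, and the ranges overlapped. The log2 fold change was -0.13 ± 0.14 with an adjusted p of 0.577 by edgeR, and it turned to 0.01 on FPKM, a scale that moved the median of all tested genes up to 0.12 (log2, pseudocount 0.1). In the GENCODE M21 annotation, Il7 shares 105 exonic bases with an antisense gene, Gm16685, which had 114 to 124 counts in TP-18 and 83 to 93 in vehicle libraries. The strand setting of the counting is not given in the sources used here, so reads of that stretch cannot be assigned.

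The private chain of the IL-15 receptor, Il15ra (Entrez 16169, chromosome 2, 11705172 to 11733985, plus strand), rose in TP-18 tumors. It measured 11.7, 16.7 and 11.9 CPM there and 6.6, 3.67 and 5.03 CPM in vehicle tumors. The lowest TP-18 tumor was well above vehicle 1, the highest vehicle tumor. Group means were 13.5 ± 2.82 and 5.1 ± 1.46 CPM, and the log2 fold change was 1.4 ± 0.25 with an adjusted p of 0.0138 by edgeR. The call held in all 6 fits that left out 1 tumor, with adjusted p-values from 0.00618 to 0.0456. The promoter windows on hand for Il15ra, from RefSeq on GRCm38.p6, cover 2 starts inside the gene span given above, and other starts may exist. Each of the 2 windows below runs from 250 bases before its start to 50 from the start on. They are shown because interferon is known to induce this gene. Capitals mark the 8-letter core bound by interferon regulatory factors, AANNGAAA, read on both strands.
Il15ra, upstream start, chr2:11705043-11705342, plus strand: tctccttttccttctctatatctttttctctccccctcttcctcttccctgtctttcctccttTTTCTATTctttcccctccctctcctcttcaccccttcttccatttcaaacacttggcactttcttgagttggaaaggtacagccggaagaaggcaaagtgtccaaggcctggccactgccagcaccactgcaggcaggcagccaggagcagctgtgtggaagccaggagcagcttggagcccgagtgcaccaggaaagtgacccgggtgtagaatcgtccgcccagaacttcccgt
Il15ra, downstream start, chr2:11705462-11705761, plus strand: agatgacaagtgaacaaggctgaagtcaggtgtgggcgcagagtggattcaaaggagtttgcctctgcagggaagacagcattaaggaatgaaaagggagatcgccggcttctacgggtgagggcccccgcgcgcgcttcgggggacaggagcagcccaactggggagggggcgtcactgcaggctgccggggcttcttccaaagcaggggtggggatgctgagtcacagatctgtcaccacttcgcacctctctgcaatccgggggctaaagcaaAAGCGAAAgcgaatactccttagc

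The first base of the match lay at position 27 relative to the downstream start, and, on the opposite strand, at position -187 relative to the upstream one. The longer repeat, which is GAAA, 2 bases of any kind and GAAA again, and the gamma-activated site TTCNNNGAA, which binds STAT dimers, were in neither window. Of 32851 windows of this length, 23.9% hold the core, 3.44% the repeat and 8.3% the gamma-activated site, so the core is common and the matches may overlap between motifs. Windows were on hand for 7 of the 10 genes, 10 windows in all, of which 4 held the core and 1 the gamma-activated site. A match is a stretch of letters, and no binding was measured.

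Il2rb (Entrez 16185, chromosome 15, 78479256 to 78511621, minus strand) encodes the beta chain that transmits both IL-2 and IL-15 signals on NK cells and T cells. It showed the smallest adjusted p of the set. Its level was 104, 94.8 and 70.3 CPM in TP-18 tumors and 28.9, 30.2 and 33.2 CPM in vehicle tumors. The vehicle tumors lay close together, and the lowest TP-18 tumor had over 2 times the highest of them. The log2 fold change was 1.54 ± 0.15 with an adjusted p of 0.00182 by edgeR. It was called in all 6 fits without 1 tumor, with log2 fold changes of 1.42 to 1.69 and adjusted p-values up to 0.0184.

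Il2rg (Entrez 16186, chromosome X, 101264385 to 101268255, minus strand), the shared gamma chain itself, rose less. It measured 85.2, 116 and 91.7 CPM in TP-18 tumors and 66.8, 53.2 and 54.0 CPM in vehicle tumors, with no overlap. Means were 97.6 ± 16.2 and 58.0 ± 7.62 CPM, and the log2 fold change was 0.75 ± 0.14 with an adjusted p of 0.0171 by edgeR. The call was lost without TP-18 3 (adjusted p = 0.0513) and without vehicle 2 (0.0748) and kept in the other 4 such fits. Its exons share 728 bases with those of Gm20489 on the same strand in GENCODE M21, a gene not analysed here, and reads there may have been left uncounted or split. The promoter window of Il2rg is given for comparison with those of Il15ra, with the same core in capitals, at position -2.
Il2rg, chrX:101268206-101268505, minus strand: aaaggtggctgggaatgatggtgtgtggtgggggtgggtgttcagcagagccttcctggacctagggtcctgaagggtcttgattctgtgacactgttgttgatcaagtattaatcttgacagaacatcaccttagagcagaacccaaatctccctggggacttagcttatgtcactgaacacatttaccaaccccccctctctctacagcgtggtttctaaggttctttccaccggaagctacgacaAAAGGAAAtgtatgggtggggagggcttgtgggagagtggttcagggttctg

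Il7r (Entrez 16197, chromosome 15, 9506159 to 9529941, minus strand), the private chain of the IL-7 receptor on naive and memory T cells, had the largest log2 fold change of the 10 and also the largest spread. It measured 9.59, 40.5 and 15.4 CPM in TP-18 tumors and 4.21, 6.21 and 9.8 CPM in vehicle tumors. TP-18 2 was 4.22 times TP-18 1, and TP-18 1 lay below vehicle 3, so the groups overlapped. The log2 fold change of 1.70 ± 0.63 had an adjusted p of 0.141 by edgeR, with 0.106 to 0.289 when 1 tumor was left out, and was 0.89 without TP-18 2 (adjusted p = 0.203). TP-18 2 did not stand out to that degree in T cell markers, at 128 CPM in sum against 111 and 114 CPM in the other TP-18 tumors. It had the highest TP-18 sum of endothelial markers, 199 CPM against 99.7 and 142 CPM. The same held for pan-leukocyte markers (1248 against 1043 and 1077 CPM) and macrophage and monocyte markers (4032 against 3100 and 3330 CPM). Fibroblast, neutrophil, innate lymphoid, B and plasma cell, epithelial and red blood cell sums were also highest there among TP-18 tumors. NK cell, dendritic cell and skeletal muscle sums were not. Whether any of these bears on Il7r was not tested. The promoter window on hand for Il7r, at a start inside the gene span, is the only one of the set with a gamma-activated site, in capitals, at position -142.
Il7r, chr15:9529827-9530126, minus strand: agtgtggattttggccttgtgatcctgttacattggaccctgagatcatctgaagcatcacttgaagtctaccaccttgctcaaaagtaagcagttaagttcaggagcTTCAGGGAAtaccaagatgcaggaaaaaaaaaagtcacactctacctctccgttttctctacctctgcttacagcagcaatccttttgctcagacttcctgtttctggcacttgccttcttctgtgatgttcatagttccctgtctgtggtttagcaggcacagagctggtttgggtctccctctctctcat

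Il21r (Entrez 60504, chromosome 7, 125603252 to 125634397, plus strand), the receptor for the helper T cell cytokine IL-21, measured 8.87, 15.02 and 9.46 CPM in TP-18 tumors and 5.46, 4.13 and 7.33 CPM in vehicle tumors. The groups did not overlap, and TP-18 2 was again the highest. The log2 fold change of 0.98 ± 0.28 had an adjusted p of 0.0572 by edgeR, which narrowly missed the threshold. With 1 tumor left out it passed in 1 of 6 fits, at 0.0383 without vehicle 3, and reached 0.155 without TP-18 2 and without vehicle 2. It was 0.00804 by DESeq2 and 0.124 with the replicate block. By limma on log2(FPKM + 1) it was 0.0382 with the filter on low values and 0.11 without it.

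Jak3 (Entrez 16453, chromosome 8, 71676383 to 71690577, plus strand), the kinase bound to the gamma chain, measured 72.9, 74.1 and 58.1 CPM in TP-18 tumors and 56.6, 64.3 and 69.6 CPM in vehicle tumors. The groups overlapped, and TP-18 3 was lower than 2 of the vehicle tumors. The log2 fold change was 0.11 ± 0.12 (adjusted p = 0.592 by edgeR). Jak3 shares 404 exonic bases with Insl3, which had 14 to 38 counts per library against at least 1991 for Jak3.

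The STAT5 genes lie head to head on chromosome 11, Stat5b (Entrez 20851, 100780731 to 100859004) on the minus and Stat5a (Entrez 20850, 100859351 to 100885169) on the plus strand, with 346 bases between them. Stat5b measured 52.1, 57.3 and 51.5 CPM in TP-18 and 41.6, 48.8 and 49.5 CPM in vehicle tumors, without overlap but with a log2 fold change of only 0.20 ± 0.10 (adjusted p = 0.198 by edgeR). Stat5a measured 8.71, 10.0 and 10.6 CPM in TP-18 and 6.09, 7.74 and 10.1 CPM in vehicle tumors, where vehicle 3 exceeded 2 TP-18 tumors (0.30 ± 0.20, adjusted p = 0.361). The 2 genes are close copies. Of the distinct 75-base stretches of Stat5a transcripts, 9.27% also occur in Stat5b transcripts, and 7.08% the other way, so part of their reads cannot be assigned with certainty. Stat5a also shares 72 exonic bases with Stat3 on the opposite strand, which had 6320 to 6987 counts in TP-18 and 5303 to 6228 in vehicle libraries, against 324 to 415 and 214 to 322 for Stat5a. As the strand setting is unknown, reads of that stretch cannot be assigned either.

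**Figure D2:**
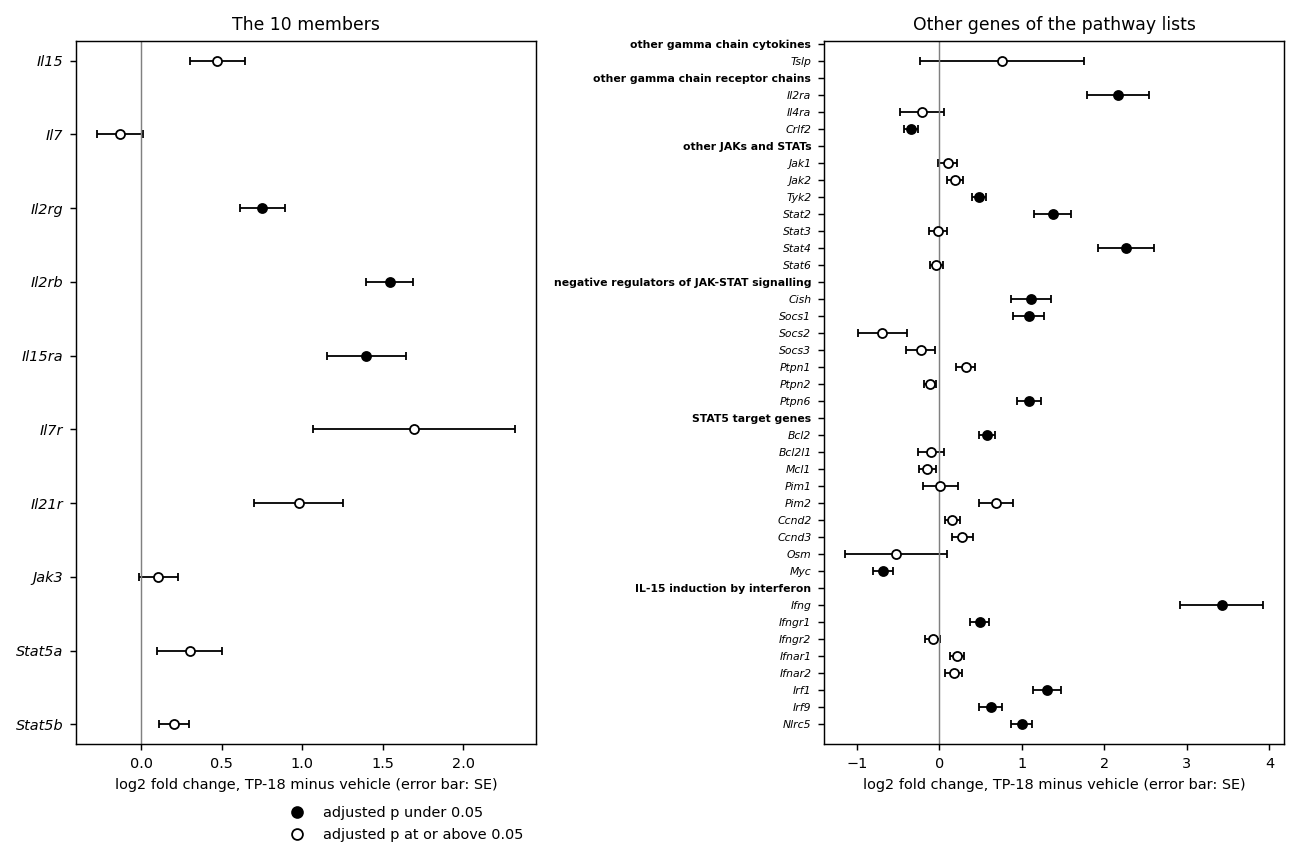
Log2 fold changes, TP-18 minus vehicle, of the 10 genes (left) and of the other genes of the 6 pathway lists (right), with SE bars, filled where the adjusted p was under 0.05. A gene that stands in 2 lists is drawn once. On the left, Il2rg, Il2rb and Il15ra are filled, and on the right Ifng is the farthest from 0.

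On a scale per gene length, in FPKM, the gamma chain was the most abundant of the 10 in both groups. Il2rg averaged 61.6 ± 9.48 FPKM in TP-18 and 33.3 ± 5.9 FPKM in vehicle tumors (SD, n = 3 each). In TP-18 tumors Il2rb followed at 20.8 ± 3.83 FPKM and overlapped with Jak3 at 17.6 ± 2.04 FPKM. In vehicle tumors Jak3 came second at 14.8 ± 0.89 FPKM, and Il2rb lay below it at 6.46 ± 0.25 FPKM with no overlap. Stat5b ranked 4 in both groups, at 7.08 ± 0.32 and 5.57 ± 0.3 FPKM, and separate from the next gene. From Il15 down to Stat5a in TP-18 tumors each gene overlapped with the next. In vehicle tumors the order ended with Il15ra at 0.97 ± 0.32 FPKM, the lowest level of the 10. For scale, the T cell receptor chain gene Cd3e, chosen for this after its values were seen, averaged 3.68 FPKM in TP-18 and 0.79 FPKM in vehicle tumors, below Il2rg, Il2rb and Jak3 in each group. The gap depends on the gene chosen. Cd3g, another T cell marker, averaged 14.2 FPKM in TP-18 and 3.93 FPKM in vehicle tumors, also below these 3 but nearer to them.

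**Figure D3:**
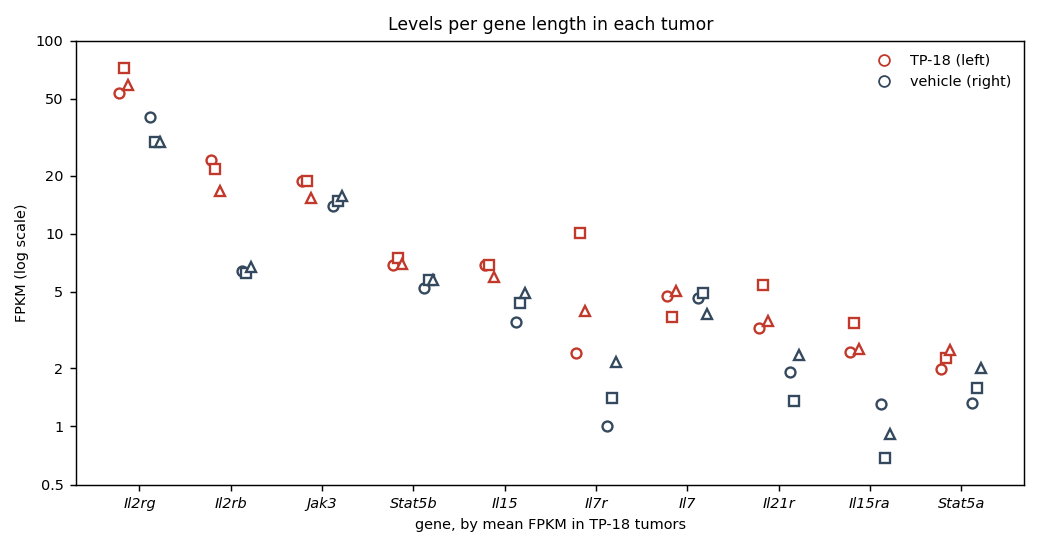
FPKM of the 10 genes in each tumor on a log axis, TP-18 tumors to the left and vehicle tumors to the right of each gene, ordered by mean FPKM in TP-18 tumors. Il2rb lies near 6.46 FPKM in vehicle and near 20.8 FPKM in TP-18 tumors, level with Jak3 there.

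Ratios between members were compared by exact permutation tests over the 6 tumors, two-sided, for which 3 against 3 cannot give a p below 0.1. There were 25 ratios in the family, and the smallest p after Benjamini-Hochberg adjustment was 0.179, so none passed. The FPKM ratio of Il2rb to Il2rg was 0.449, 0.3 and 0.282 in TP-18 and 0.159, 0.209 and 0.226 in vehicle tumors, higher in every TP-18 tumor (exact p = 0.1). The ratio of Il15ra to Il15 was 0.356, 0.5 and 0.422 in TP-18 tumors and 0.375, 0.156 and 0.185 in vehicle tumors. Here vehicle 1 fell among the TP-18 tumors (exact p = 0.2). The ratio of Il7r to Il7 ran from 0.506 to 2.73 in TP-18 and from 0.217 to 0.565 in vehicle tumors, with overlap, and that of Stat5a to Stat5b from 0.29 to 0.358 and from 0.254 to 0.352 (exact p-values 0.2 and 0.5). The ratio of Jak3 to Il2rg was 0.258 to 0.348 in TP-18 and 0.345 to 0.525 in vehicle tumors (exact p = 0.2).

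Set against pan-leukocyte genes, by the difference between a member's log2 CPM and the mean log2 CPM of 8 such genes, the 3 TP-18 values of Il2rb lay above the 3 vehicle values, by 0.58 on average. Il7, Jak3, Stat5a and Stat5b were lower in every TP-18 tumor, by 0.63 to 1.07 on the log2 scale, and the other 5 overlapped (exact p = 0.1 for each of the separate ones). Set against 14 T cell genes, all 10 members had a lower mean log2 ratio in TP-18 tumors, 8 of them without overlap. The smallest such differences were those of Il2rb, at -0.41, and Il7r, at -0.48, and the largest was that of Il7, at -2.06. All 14 T cell genes were themselves called higher, with a median log2 change of 2.18. No member rose as much, the largest log2 fold change being 1.70, for Il7r. The 8 pan-leukocyte genes had a median log2 change of 0.94. The lower ratios thus follow from the rise of the reference genes and do not show a fall of the members. These ratios say nothing about which cells carry the transcripts.

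**Figure D4:**
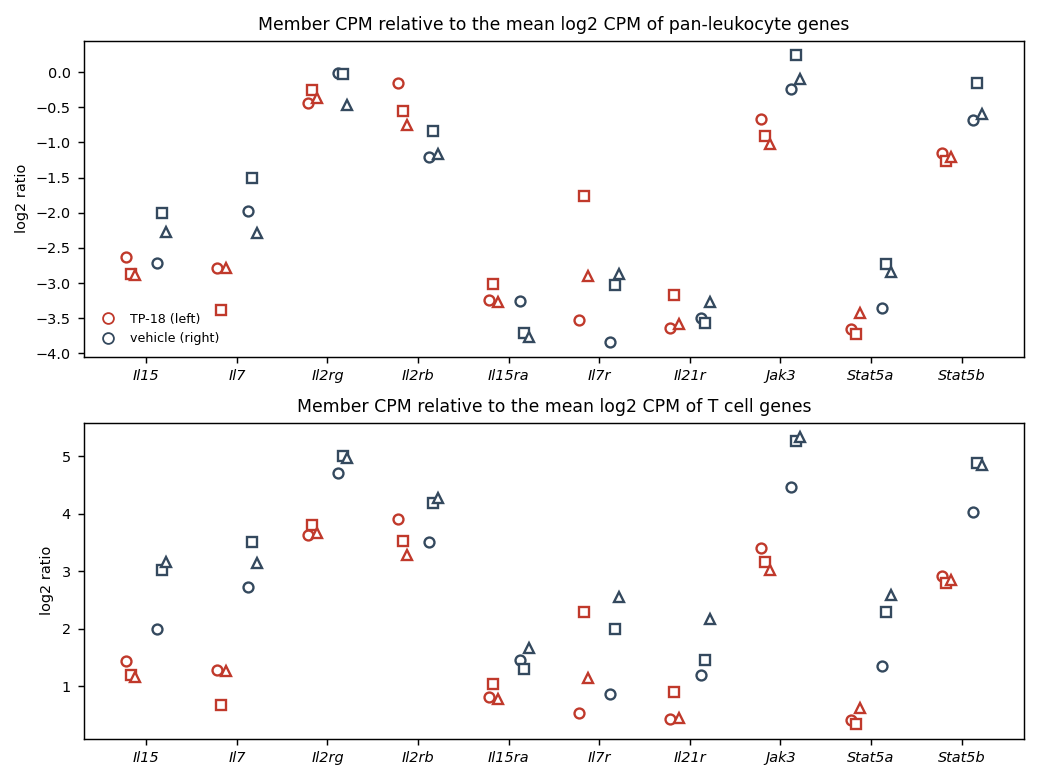
Log2 ratio of each gene's CPM to the mean level of 8 pan-leukocyte genes (top) and of 14 T cell genes (bottom) in each tumor, TP-18 to the left and vehicle to the right of each gene. Circles, squares and triangles are tumors 1, 2 and 3 of a group. In the upper panel Il2rb alone is higher in all TP-18 tumors without overlap. In the lower panel 8 of the 10 genes are lower in all of them, relative to T cell genes that were all called higher in TP-18 tumors.

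The genes most like a member over the 6 tumors, by Pearson's r of log2 CPM, are a description, since the tumors share a group difference and there are only 6 of them. Il2rb was most like Tgtp1 (r = 0.994), Hook1 (0.993) and Gbp7 (0.993), of which Tgtp1 and Gbp7 are interferon-induced GTPases. Il15 was most like Gfm2 (r = 0.995), Klrg1 (0.994), a receptor of mature NK cells and T cells, and Gzme (0.991), a granzyme. Il7 was most like Ccar1, Cdca4 and Tamm41 (r = 0.991, 0.987 and 0.982), and Il7r like Gm33277, Zfp429 and Gm34181 (r = 0.998, 0.995 and 0.992). The remaining members were looked up after their values were seen. For Il15ra they were Ifi44l, Gbp8 and Gpsm3 (r = 0.999, 0.998 and 0.998), the first and second of them interferon-induced. For Il2rg they were Cmklr1, Cers4 and Scarf1 (0.996, 0.996 and 0.994), and for Il21r Stxbp2, Fpr2 and Slc43a2 (0.994 each). Jak3 was most like Wdyhv1, Gm30259 and Sh2d1b2 (0.974, 0.973 and 0.973). Stat5a was most like Fbxw7, Mcoln2 and Pigx (0.999, 0.995 and 0.992), and Stat5b like Gna13, Morc3 and Dennd3 (0.987, 0.984 and 0.981). TP-18 2 was the highest TP-18 tumor for 7 of the 10 members, and vehicle 3 the highest vehicle tumor for 7.

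The rest of the pathway was read from 6 lists with 40 genes, of which 35 were tested, 13 called higher and 2 lower. Among the other ligands, Il2, the growth factor of activated T cells, and Il21 had 1 read each in TP-18 and 0 in vehicle tumors. Il4 had 5 and 2 reads and the ligand Tslp, whose receptor pairs Il7r with Crlf2, 37 and 19, with an adjusted p of 0.65 for Tslp by edgeR. Differences in Il2, Il4 and Il21 were not detectable at this depth, and Il9 is not analysed here.

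Of the 3 other receptor chains tested, 1 was called higher and 1 lower, with a median log2 change of -0.21. Il2ra, the chain that gives the IL-2 receptor its high affinity on activated and regulatory T cells, measured 8.22, 15.1 and 9.3 CPM in TP-18 and 1.34, 2.72 and 3.21 CPM in vehicle tumors. It rose by 2.17 ± 0.37 on the log2 scale (adjusted p = 0.0138 by edgeR), with 0.0589 without vehicle 2. Crlf2, the TSLP receptor chain, measured 30.6, 31.6 and 30.9 CPM against 42.5, 38.9 and 36.5 CPM, and fell by 0.34 ± 0.09 (adjusted p = 0.0403). That call passed only without vehicle 3 among the fits with 1 tumor left out. Its adjusted p was 0.126, 0.0938 and 0.135 without TP-18 1, 2 and 3 in turn, 0.0727 without vehicle 1 and 0.119 without vehicle 2. Il4ra, which pairs with the gamma chain for IL-4, measured 86.4 to 104 CPM in TP-18 and 85.0 to 163 CPM in vehicle tumors (adjusted p = 0.646).

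The other JAK and STAT genes had 3 of 7 called higher and 0 lower, with a median log2 change of 0.19. Without vehicle 2, 1 was called higher, in a fit that called 2.81% of all genes higher, against 7.09% in the main fit. Stat4, which acts below IL-12 in T cells and NK cells, rose by 2.27 ± 0.34 (adjusted p = 0.0077 by edgeR), and was called in all 6 fits without 1 tumor. Stat2, which acts below type I interferon, rose by 1.37 ± 0.23 (adjusted p = 0.0163, and 0.0721 without vehicle 2). Tyk2, a kinase of interferon and IL-12 receptors, rose by 0.48 ± 0.09 (adjusted p = 0.0158). Leaving out TP-18 1 gave 0.0583, TP-18 2 gave 0.0562 and vehicle 2 gave 0.0651. Jak1, which works beside JAK3 on these receptors, had a log2 fold change of 0.10 ± 0.12 (adjusted p = 0.597), and Jak2, Stat3 and Stat6 had adjusted p-values of 0.229, 0.953 and 0.789.

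Genes that restrain JAK and STAT signalling had 3 of 7 called higher and 0 lower, with a median log2 change of 0.32. Without vehicle 2, where 2.81% of all genes were called higher against 7.09% in the main fit, 1 was called higher. Cish, a feedback inhibitor that STAT5 itself induces, measured 4.41, 4.95 and 6.28 CPM in TP-18 and 2.67, 1.99 and 2.59 CPM in vehicle tumors, a rise of 1.11 ± 0.24 (adjusted p = 0.0263 by edgeR). The call was lost without TP-18 1 (0.0524), TP-18 2 (0.0684), TP-18 3 (0.11) or vehicle 2 (0.092). Socs1, an inhibitor induced by interferon gamma and gamma chain cytokines, rose by 1.08 ± 0.19 (adjusted p = 0.0138, and 0.0546 without vehicle 2), and Ptpn6, the phosphatase SHP-1 of blood cells, by 1.09 ± 0.14 (0.0053) in all 6 such fits. Socs2 and Socs3 had log2 fold changes of -0.69 ± 0.29 and -0.23 ± 0.17 (adjusted p = 0.162 and 0.428).

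Of 12 STAT5 target genes, 3 were called higher and 1 lower, and their median log2 change was 0.09. None of these 4 calls held without vehicle 2. That fit called 2.81% of all genes higher and 0.766% lower, against 7.09% and 5.26% in the main fit. Besides Cish and Il2ra, Bcl2, which protects lymphocytes from death, rose by 0.58 ± 0.10 (adjusted p = 0.0121 by edgeR, and 0.0589 without vehicle 2). Myc, a transcription factor gene of cell growth that cancer cells also use, fell by 0.68 ± 0.13 (adjusted p = 0.0163). Leaving out TP-18 1 gave 0.0575, TP-18 2 gave 0.0577 and vehicle 2 gave 0.0671. Pim2, a survival kinase, had a log2 fold change of 0.69 ± 0.21 (adjusted p = 0.0662), while Pim1, Bcl2l1, Mcl1, Ccnd2 and Ccnd3, also of survival and division, stayed between -0.14 and 0.28 and did not pass. Socs2, given above among the restraining genes, is also 1 of these 12 and went the other way from Cish. It was lower in every TP-18 tumor than in every vehicle tumor (-0.69 ± 0.29), but did not pass (adjusted p = 0.162 by edgeR). Osm, a cytokine of the IL-6 family, measured 5.86 to 6.73 CPM in TP-18 tumors and 4.01, 4.56 and 18.9 CPM in vehicle tumors (adjusted p = 0.618), the last in the tumor with the most neutrophil markers.

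Genes of interferon signalling, through which Il15 and Il15ra can be induced, together with the interferon-induced Nlrc5, had 5 of 8 called higher and 0 lower, with a median log2 change of 0.56. The count was 3 without TP-18 1, without TP-18 2, without vehicle 2, with the replicate block and on log2(FPKM + 1) with no filter. These fits called 2.81% to 4.08% of all genes higher, against 7.09% in the main fit. Ifng, interferon gamma, rose by 3.42 ± 0.50 on 387 reads in TP-18 and 32 in vehicle tumors. Irf1, a transcription factor at the Il15 and Il15ra genes, measured 226, 264 and 162 CPM in TP-18 and 85.5, 84.9 and 94.4 CPM in vehicle tumors and rose by 1.3 ± 0.17 (adjusted p = 0.00604 by edgeR). Nlrc5, an interferon-induced activator of class I genes, rose by 1.00 ± 0.13, and these 3 genes were called in all 6 fits without 1 tumor. Irf9 rose by 0.62 ± 0.14 (adjusted p = 0.0316). Leaving out TP-18 1 gave 0.0948, TP-18 2 gave 0.0825, vehicle 1 gave 0.064 and vehicle 2 gave 0.11. Ifngr1, a chain of the interferon gamma receptor, rose by 0.49 ± 0.11 (adjusted p = 0.0319) and lost its call without any 1 tumor other than vehicle 1, with 0.07, 0.0902 and 0.11 without TP-18 1, 2 and 3 and 0.115 and 0.0661 without vehicle 2 and 3. Ifngr2, Ifnar1 and Ifnar2 did not pass.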

How the data were processed

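Bulk RNA sequencing of 6 tumors was used, 3 TP-18 and 3 vehicle, grouped by the labels. The submitters' processing notes name fastp, HISAT2, HTSeq and build GRCm38; for versions, strand setting and handling of multiply mapped reads nothing is given in the sources used here. Whole-number counts per gene were deposited in 1 table. FPKM, also deposited by the authors, follow from these counts: in all 12216 genes with at least 20 counts per library it equals the count over 1 whole length (within 0.01 bases) and the library total. The labels do not say that tumors came from separate mice, so p-values measure only the spread between these samples, which may be technical.

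Genes were filtered with filterByExpr (minimum count 10, minimum total 15), scaled by TMM and tested with edgeR 4.0.16 (robust quasi-likelihood, group alone, two-sided, prior count 0.125) in R 4.3.3. SEs come from the F statistic. CPM are TMM-scaled. Alternatives used limma 3.58.1 (log2(FPKM + 1) or + 0.1, at least 0.5 FPKM in 3 libraries, or no filter) and DESeq2 1.42.0. The edgeR procedure was run on simulated counts with the same dispersion for every gene. Real genes differ in spread, so that run checked the code and not the calls above. The 10 genes, the lists and the rule for named genes (all members, every pathway gene that passed and the others as values, the 3 tested genes most like Il2rb, Il15, Il7 and Il7r, at most the 2 most abundant markers of a cell type list, and neighbours that could share reads) were chosen with earlier results of these data known. A gene of the pathway lists is not reported here and was left out of the list counts and medians, but not of the fit. Correlations use log2(CPM + 0.5). Marker lists without a called direction above (fibroblast, endothelial, epithelial, neutrophil, innate lymphoid and B cell) had 0, 0, 0, 0, 0 and 2 genes called higher and 0, 0, 0, 0, 1 and 0 lower, and pan-leukocyte genes 5 of 8 higher.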

Additional observations from a re-analysis of the deposited data

How the results depend on the processing

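The number of the 10 genes called higher was 3 by edgeR with TMM scaling and 5 by limma on log2(FPKM + 1) and on log2(FPKM + 0.1), where Il15 and Il21r were added, but 2 on log2(FPKM + 1) with no filter. These FPKM fits called 1310 genes higher and 245 lower, and 1274 and 239, against 1006 and 747 by edgeR, and DESeq2 called 1464 and 1240. The median log2 change of all genes was 0.1 and 0.12 on the FPKM scales, against -0.01 with TMM; the cause of the added calls was not tested. Leaving out 1 tumor gave 2 to 4 of the 10 called higher. No called gene of the 10 changed direction in any of 17 alternatives (RLE and upper-quartile scaling, no filter, 1 CPM in 3 libraries, non-robust moderation, limma-voom, DESeq2, FPKM, the replicate block and each tumor left out). That unfiltered fit gave adjusted p-values of 0.0524 for Il2rg, 0.0883 for Il15 and 0.11 for Il21r, and edgeR with no count filter gave 0.0345 for Il21r. With the replicate number as a replicate block, 2 of the 10 were called, Il2rg having an adjusted p of 0.0549, and 547 genes were higher and 231 lower in all. Deviations of same-numbered tumors correlated at 0.25, -0.10 and -0.07, and 2 of 6 tumors correlated best with their own number, so the numbers were not taken as pairs. Read totals limit the ligand genes Il2, Il4 and Il21 and the receptor gene Il9r, which had at most 5 reads in a group.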
